A study of Homo sapiens with 6 samples.

Results

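The transcripts described here encode 8 receptor tyrosine kinases, MET, MST1R, AXL, TYRO3, MERTK, DDR1, DDR2 and INSR, and 2 of their ligands, HGF and GAS6. They were followed through every probe set of the array whose platform annotation names exactly 1 of these 10 genes, which gave 35 probe sets of 49293. RNA came from tumors that the established human line CRL-5889, a squamous carcinoma of the lung, had formed in nude mice by 4 weeks after grafting. In 3 tumors the cells had been transfected with the TRA2B-DNAH5 fusion, and in the other 3 with vector. All 6 tumors therefore share the cell line and the host, and each was read on its own Affymetrix array. All come from transfected cells, but the transfected cells differ between the groups. The fusion and any other difference between the transfected cells of the groups cannot be told apart. The labels do not say whether the transfected cells were clones or pools, which promoter drives the fusion, or which mouse carried which tumor, so p-values measure the spread between these tumors.

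Receptor tyrosine kinases span the cell membrane and carry a kinase domain on the inner side, which phosphorylates tyrosines once a ligand has bound. MET binds HGF, a growth factor made largely by stromal cells that drives scattering, invasion and survival of epithelial cells, and MET is a known oncogene of lung cancer. AXL, TYRO3 and MERTK form the TAM group, whose ligand GAS6 bridges them to phosphatidylserine on dying cells. DDR1 and DDR2 bind collagen instead of a soluble factor, and INSR is the insulin receptor.

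MET and MERTK were the members whose levels differed most between the groups relative to their spread, so the 250 bases before the start of each are shown, from RefSeq on build GRCh38.p14. The capitals mark the GC box, GGGCGG on either strand, a motif that transcription factors of the SP family bind. The MET sequence is chr7:116671946-116672195 and the MERTK sequence chr2:111898357-111898606, both on the plus strand.
MET: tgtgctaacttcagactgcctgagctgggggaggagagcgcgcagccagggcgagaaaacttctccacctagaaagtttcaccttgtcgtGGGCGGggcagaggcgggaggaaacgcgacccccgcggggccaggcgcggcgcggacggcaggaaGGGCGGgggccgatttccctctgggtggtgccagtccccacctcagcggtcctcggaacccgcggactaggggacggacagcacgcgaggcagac
MERTK: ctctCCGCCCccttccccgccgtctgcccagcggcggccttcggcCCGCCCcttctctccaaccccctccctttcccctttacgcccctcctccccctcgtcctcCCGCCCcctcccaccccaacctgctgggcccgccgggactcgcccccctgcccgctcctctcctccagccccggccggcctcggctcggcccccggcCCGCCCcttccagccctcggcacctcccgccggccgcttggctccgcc
The MET window held 2 GC boxes, both on the printed strand, and the MERTK window 4, all on the opposite strand. At least 1 GC box was present in 42.6% of 35116 promoter windows of this length. Neither window held the AP-1 motif TGANTCA, found in 6.57% of all windows, or the TATA motif TATAAA, found in 10.7%, when both strands were searched. The windows were 68.4% G or C in MET and 78.8% in MERTK. Such matches describe the letters only.

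The deposited log2 values of the 6 arrays had medians from 6.34 to 6.39 in fusion tumors and from 6.27 to 6.37 in vector tumors. Vector tumor 1 stood apart from the other 5 tumors on the first principal component. A probe set is called dim here where its mean log2 level was below 4.94, which 30% of all probe sets were. Of 8 squamous markers, 6 had a probe set of their own. Of these the desmosomal cadherin DSG3 was dim while the keratins KRT5 and KRT14 and the transcription factor SOX2 were not. The means of KRT5 (5.12) and KRT14 (5.70) lay much nearer the dim level than that of SOX2 (9.24). SOX2 had 8.70, 8.92 and 8.85 in fusion tumors 1 to 3, against 9.24, 9.62 and 10.10 in vector tumors 1 to 3 (log2 fold change -0.83, adjusted p = 0.369 by limma). Of 6 lung adenocarcinoma markers, 5 were not dim (NKX2-1, NAPSA, SFTPB, SFTPC and MUC1), so markers of both classes lay above the dim level. TP63 and KRT6A were not used here, since no probe set named either alone. The epithelial markers EPCAM, CDH1 and ESRP1 were dim, whereas KRT8, KRT18 and KRT19 were not, with means of 5.29, 8.56 and 5.13. The mean of 6 adipocyte markers was 5.45 to 5.48 in fusion tumors and 5.55 to 5.74 in vector tumors, without overlap, and its part in the results was not tested. The arrays carry human probe sets, and transcripts of the mouse host were not told apart from those of the grafted cells. In bulk tumor RNA, fewer cells of a type and less RNA per cell cannot be told apart.

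Among the 10 genes, MET and MERTK had higher levels in fusion tumors at an unadjusted p below 0.05, and the other 8 had overlapping groups on their most abundant probe set. None of the 35 probe sets passed an adjusted p of 0.05 in limma's fit over all probe sets, where 0.0101% of all probe sets did. An unadjusted p below 0.05 with a higher level in fusion tumors was found for 6 of the 35, against 3.1% of all probe sets, and in the other direction for 0 of the 35, against 2.13%. Every fusion tumor lay above every vector tumor in 6 of the 35, against 5.94% of all probe sets, and below in 1, against 4.9%. These counts rest mainly on MET, which has 6 probe sets, and probe sets of a gene are not independent. The median log2 fold change, fusion minus vector, was 0.052 over the 35 probe sets and 0.0085 over all probe sets. The dim level was reached by 23 of the 35, and all 4 probe sets of HGF fell short of it. With 3 tumors against 3, the smallest two-sided p of an exact permutation test is 0.1.

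MET, the receptor of HGF, stood higher in fusion tumors on all 6 of its probe sets, by 1.24-fold to 1.49-fold. On the most abundant of them, MET had log2 levels of 10.20, 10.20 and 10.15 in fusion tumors 1 to 3, against 9.82, 9.60 and 9.52 in vector tumors 1 to 3. The fusion tumors lay close together and the groups did not overlap. The means were 10.18 ± 0.031 in fusion tumors and 9.64 ± 0.15 in vector tumors (SD, n = 3 each), a difference of 1.45-fold with a 95% confidence interval from 1.24-fold to 1.71-fold. The log2 fold change of 0.54 (SE 0.10) had an unadjusted p = 0.000649 by limma, the 37th smallest of 13694 genes, and an adjusted p = 0.239, so it did not pass the threshold at which 0.073% of genes did. The exact permutation p was 0.1.

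The other MET probe sets pointed the same way but differed in spread. The second most abundant had 9.21, 9.24 and 9.21 in fusion tumors 1 to 3, against 8.72, 8.67 and 8.54 in vector tumors 1 to 3. Its log2 fold change of 0.58 (SE 0.095) had the lowest p of the 35 probe sets by limma (adjusted p = 0.199 over all probe sets). The next had 7.49, 7.99 and 7.99 in fusion tumors, against 7.50, 7.55 and 7.17 in vector tumors. There fusion tumor 1 lay within the range of the vector tumors, and the log2 fold change was 0.41 (SE 0.16). Another had 7.09, 7.23 and 7.49 in fusion tumors, against 7.01, 7.00 and 6.85 in vector tumors, with no overlap and a log2 fold change of 0.32 (SE 0.12). The remaining 2 were dim, with log2 fold changes of 0.39 and 0.32, and a fold measured near background may be too small. In all, 4 of the 6 MET probe sets had every fusion tumor above every vector tumor, and 5 had an unadjusted p below 0.05.

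**Figure D1:**
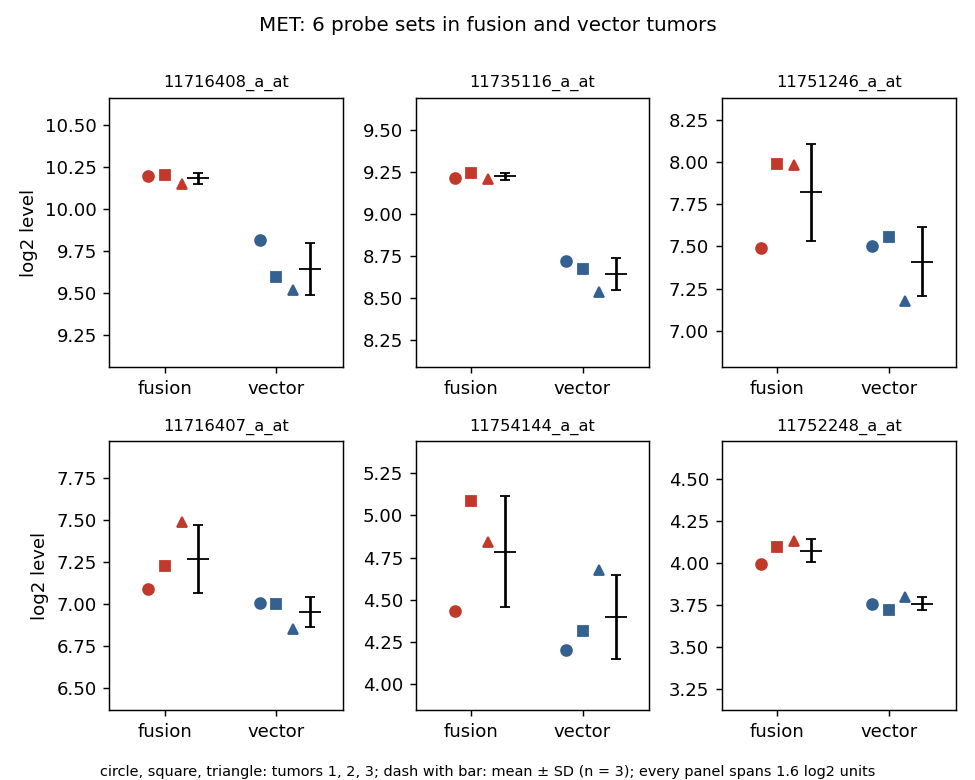
Log2 level of each of the 6 MET probe sets (vertical axis, log2 units) in the 3 fusion tumors (red) and the 3 vector tumors (blue); the dash with bar is the mean ± SD (n = 3). In the first panel the fusion tumors sit between 10.15 and 10.20, above all vector tumors, which reach 9.82.

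MET passed under 2 alternatives, with array weights and without vector tumor 1, the highest of the vector tumors for this gene. Without that tumor the log2 fold change was 0.63 and the adjusted p = 0.0418 by limma, and with array weights, which gave vector tumor 1 the lowest weight (0.232), it was 0.58 with an adjusted p = 0.00919. In the fit over all probe sets, 0 of the 35 passed without vector tumor 1, and 2, both of MET, passed with array weights. Both settings raised the calls over all 13694 genes, from 10 to 37 without vector tumor 1 and to 140 with array weights. Array weights change the weight of every tumor, and the part of vector tumor 1 in that result was not tested. With any 1 of the other 5 tumors left out MET did not pass (adjusted p from 0.485 to 0.892).

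HGF, the ligand of MET, had no probe set above the dim level, and the groups overlapped on all 4. On the most abundant, HGF stood at 4.20, 4.40 and 4.02 in fusion tumors 1 to 3, against 4.31, 4.32 and 4.43 in vector tumors 1 to 3. The log2 fold changes of the 4 ranged from -0.15 to 0.073, with unadjusted limma p-values of 0.245 and above. These are human probe sets, so HGF from mouse stroma was not measured as such.

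MST1R, also called RON, is the closest relative of MET and the receptor of macrophage stimulating protein. MST1R had 6.38, 6.30 and 6.52 in fusion tumors 1 to 3, against 6.45, 6.25 and 6.48 in vector tumors 1 to 3. The groups overlapped almost fully. On this most abundant probe set the log2 fold change had a 95% interval from -0.23 to 0.25, which does not reach the 0.54 of MET. The difference between MST1R and MET was itself not tested. The 4 MST1R probe sets disagreed in direction. On 1 of them fusion tumors were lower throughout, at 5.20, 5.22 and 5.29 against 5.62, 5.31 and 5.40 in vector tumors (log2 fold change -0.20, adjusted p = 0.976 by limma). On a dim one they were higher throughout, at 4.47, 4.53 and 4.37 against 4.14, 4.35 and 4.36 in vector tumors (log2 fold change 0.18, adjusted p = 0.976 by limma).

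MERTK, the TAM receptor best known for the uptake of dying cells by macrophages, had the largest log2 fold change of the 10 genes on their most abundant probe set. Its only probe set had 8.67, 8.55 and 9.19 in fusion tumors 1 to 3, against 7.93, 8.34 and 8.04 in vector tumors 1 to 3. Fusion tumor 3 was the highest, and the groups did not overlap, with fusion tumor 2 and vector tumor 2 nearest to each other. MERTK averaged 8.80 ± 0.34 in fusion tumors and 8.10 ± 0.21 in vector tumors (SD, n = 3 each), a difference of 1.62-fold with a 95% confidence interval from 1.22-fold to 2.16-fold. The log2 fold change of 0.70 (SE 0.18) had an unadjusted p = 0.00406 and an adjusted p = 0.404 by limma, and did not pass. The exact permutation p was 0.1.

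Macrophage markers stood beside MERTK as follows. Of 9 macrophage and leukocyte markers, PTPRC, CD14, CD163 and LYZ were dim in these tumors. The mean level of the 9 ran from 5.36 to 5.43 in fusion tumors and from 5.29 to 5.38 in vector tumors. Over the 5 that were not dim it ran from 6.58 to 6.68 in fusion tumors and from 6.46 to 6.50 in vector tumors, without overlap. Among the 5, CD68 had by far the largest log2 fold change, and the others ranged from -0.13 to 0.17. CD68, a lysosomal glycoprotein not limited to macrophages, had 8.73, 8.31 and 8.50 in fusion tumors 1 to 3, against 7.78, 7.68 and 7.69 in vector tumors 1 to 3 (log2 fold change 0.80, adjusted p = 0.112 by limma). CSF1R, the receptor of the macrophage growth factor CSF1, stood at a log2 fold change of 0.17, with every fusion tumor above every vector tumor (adjusted p = 0.935 by limma). TYROBP, a signalling adaptor of myeloid cells, was at -0.13 on the same scale. There every fusion tumor lay below every vector tumor (adjusted p = 0.962 by limma). AIF1 (-0.039) and ITGAM (0.020) had overlapping groups. The part of host macrophage RNA in the MERTK values was not tested.

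AXL and TYRO3, the other TAM receptors, had overlapping groups. AXL lay just above the dim level, with 5.07, 4.92 and 5.09 in fusion tumors 1 to 3 against 5.11, 4.96 and 4.91 in vector tumors 1 to 3. The AXL log2 fold change was 0.035, with a 95% confidence interval from -0.19 to 0.26. The other AXL probe set, which was dim, had -0.14. TYRO3 had 7.55, 7.67 and 7.48 in fusion tumors 1 to 3, against 7.89, 7.64 and 7.42 in vector tumors 1 to 3, and vector tumor 1 was the highest of the 6. The TYRO3 log2 fold change was -0.085, with an interval from -0.38 to 0.21, and the other TYRO3 probe set had 0.041. The difference between MERTK and these receptors was itself not tested.

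GAS6, the vitamin K dependent ligand of the TAM receptors, had 7.03, 7.19 and 7.04 in fusion tumors 1 to 3, against 7.47, 7.02 and 7.16 in vector tumors 1 to 3. The groups overlapped and vector tumor 1 was again the highest. Both GAS6 probe sets lay slightly lower in fusion tumors (log2 fold changes of -0.13 and -0.074), and the 95% confidence interval of the more abundant was -0.42 to 0.16. Without vector tumor 1 its log2 fold change was -0.0032, and without vector tumor 2 it was -0.23.

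**Figure D2:**
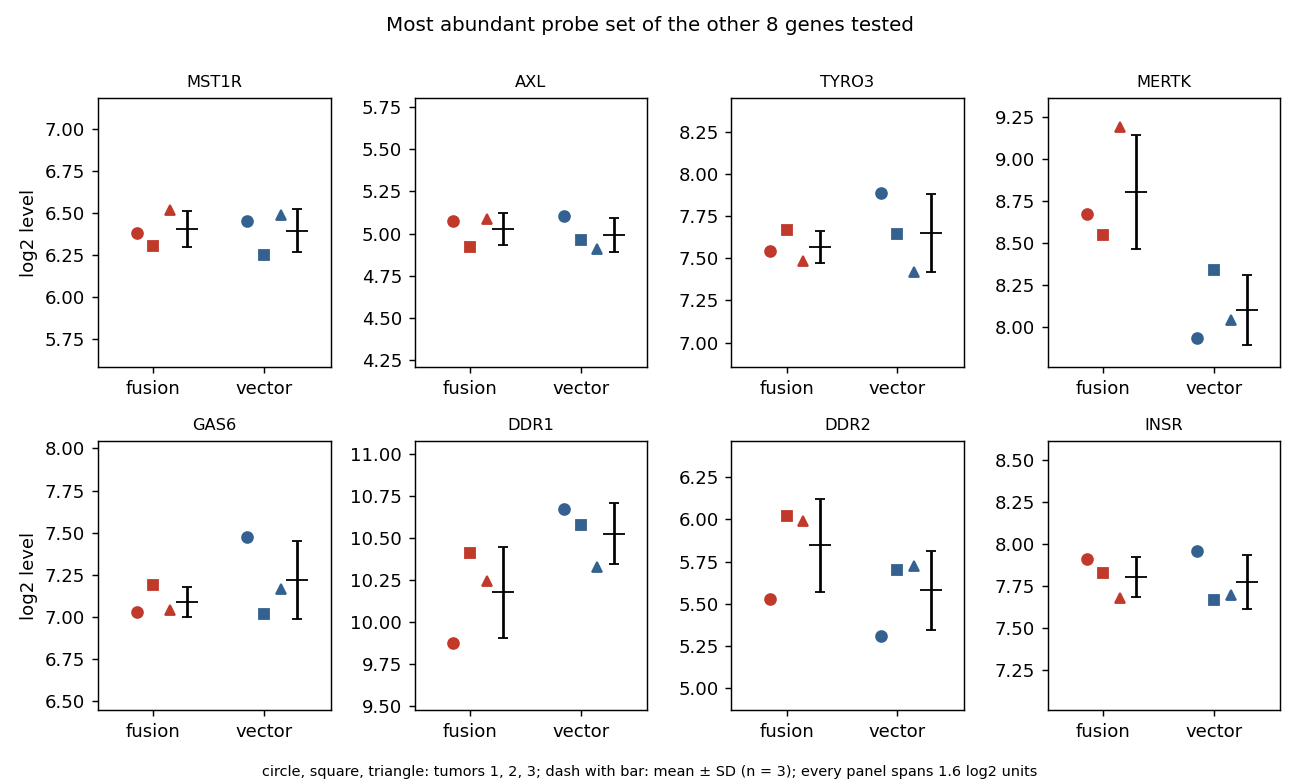
Log2 level (vertical axis, log2 units) of the most abundant probe set of MST1R, AXL, TYRO3, MERTK, GAS6, DDR1, DDR2 and INSR in the 3 fusion tumors (red) and the 3 vector tumors (blue); the dash with bar is the mean ± SD (n = 3). Of these 8 genes, MERTK alone shows every fusion tumor (8.55 to 9.19) above every vector tumor (7.93 to 8.34).

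The collagen receptors leaned in opposite directions, and neither passed. DDR1, which binds fibrillar and basement membrane collagens in epithelial cells, had 9.88, 10.41 and 10.24 in fusion tumors 1 to 3, against 10.67, 10.57 and 10.33 in vector tumors 1 to 3. Fusion tumor 1 was the lowest, while fusion tumor 2 lay above vector tumor 3. DDR1 averaged 10.17 ± 0.27 in fusion tumors and 10.52 ± 0.18 in vector tumors (SD, n = 3 each), a log2 fold change of -0.35 (SE 0.15, unadjusted p = 0.0504, adjusted p = 0.849 by limma). The second DDR1 probe set, with 9.51, 9.91 and 9.69 in fusion tumors against 10.06, 10.02 and 9.83 in vector tumors, had a log2 fold change of -0.27. The other DDR1 probe sets had 0.022 and -0.18. Without fusion tumor 1 the log2 fold change of the most abundant DDR1 probe set was -0.20.

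DDR2, a receptor of fibrillar collagens found mainly in mesenchymal cells, had 5.53, 6.02 and 5.99 in fusion tumors 1 to 3, against 5.31, 5.70 and 5.72 in vector tumors 1 to 3. In both groups tumor 1 was the lowest, and the groups overlapped. The log2 fold change was 0.27, with a 95% confidence interval from -0.11 to 0.65. It was 0.43 without fusion tumor 1 and 0.13 without vector tumor 1. Of the 5 DDR2 probe sets, 4 had a log2 fold change above 0. Only 2 of the 5 were not dim, and these had 0.27 and 0.11. Fibroblast markers leaned the same way, and over 9 such markers the mean level was 6.21 to 6.32 in fusion tumors and 5.87 to 6.10 in vector tumors. Of these, DCN and LUM were dim, and the protease FAP (log2 fold change 0.91, adjusted p = 0.202 by limma) and the surface protein THY1 (0.36, adjusted p = 0.641) had the largest log2 fold changes beside the collagen COL1A1 (0.65, adjusted p = 0.593). The part of fibroblast RNA in the DDR2 values was not tested.

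INSR, the insulin receptor, stood slightly higher in fusion tumors on all 5 of its probe sets, within the spread between tumors. On the most abundant, INSR had 7.91, 7.83 and 7.68 in fusion tumors 1 to 3, against 7.96, 7.67 and 7.70 in vector tumors 1 to 3. The groups overlapped, and the log2 fold change had a 95% interval from -0.23 to 0.29. The 5 log2 fold changes ranged from 0.031 to 0.26, with unadjusted limma p-values of 0.113 and above.

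**Figure D3:**
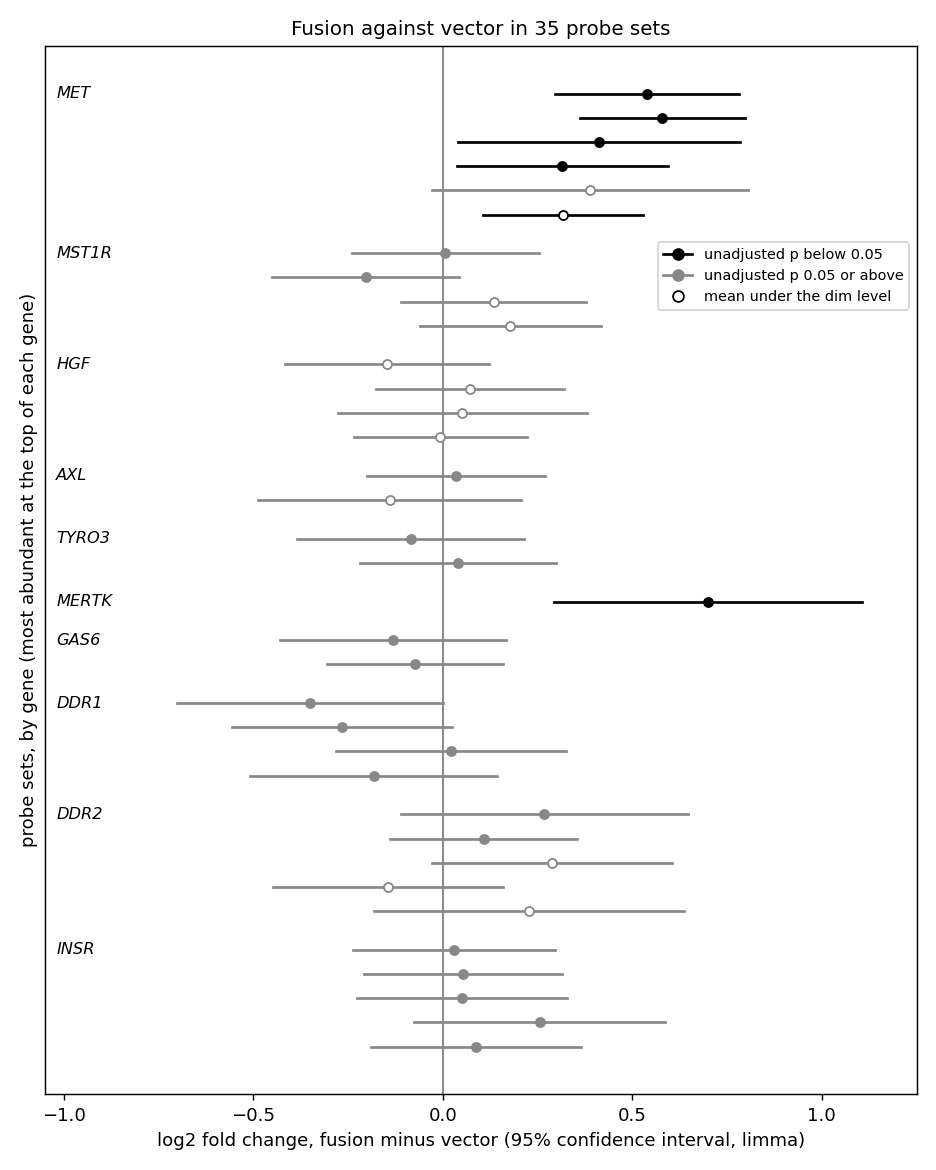
Log2 fold change, fusion minus vector, of all 35 probe sets with limma's 95% confidence interval (horizontal axis), ordered by gene from MET at the top to INSR at the bottom; black marks an unadjusted p below 0.05 and an open circle a dim probe set. The points of the 6 MET probe sets (0.32 to 0.58) and MERTK (0.70) lie right of 0, while all intervals of the other 8 genes span it.

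Genes that act around these receptors were taken from 7 lists with 134 entries, of which 106 were tested, and limma called 0 of them at an adjusted p of 0.05, where 0.073% of all genes were called. The median log2 fold change over all genes tested was 0.0020. The HGF and MSP processing list, proteases and inhibitors that control ligand activation, had a median of -0.016 over 6 tested genes, with 0 at an unadjusted p below 0.05. Its genes with the smallest p were F12 (log2 fold change -0.036), a coagulation protease, and SPINT2 (-0.034), an inhibitor of HGF activating proteases. MET partners and adaptors had a median of 0.023 over 15 genes, also with 0 at an unadjusted p below 0.05. There PLCG1, a phospholipase recruited by receptor kinases, had 0.19 and the adaptor CRKL had -0.16.

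Receptor dampeners and sheddases had a median of 0.022 over 13 genes, with 2 higher and 1 lower at an unadjusted p below 0.05, where 3.16% and 2.73% of all genes were. ERRFI1, a feedback inhibitor of EGF receptors that also dampens signalling by MET, had 13.00, 13.09 and 13.03 in fusion tumors 1 to 3, against 12.84, 12.80 and 12.77 in vector tumors 1 to 3. The groups did not overlap, but the log2 fold change was only 0.24 (adjusted p = 0.704 by limma). PTPN1, a phosphatase that acts on INSR and MET, stood 0.21 higher on the log2 scale (adjusted p = 0.837). GRB10, an adaptor that binds and restrains INSR, had 6.47, 6.95 and 6.81 in fusion tumors, against 7.43, 7.32 and 6.83 in vector tumors, with overlap and a log2 fold change of -0.45 (adjusted p = 0.797). PTPN1 was named after its value was seen.

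TAM ligands and engulfment genes had a median of 0.033 over 13 genes. At an unadjusted p below 0.05, 0 were higher and 1 lower, where 3.16% and 2.73% of all genes were. The lower gene was LGALS3, a galectin described as a MERTK ligand. It had 6.15, 5.99 and 5.80 in fusion tumors 1 to 3, against 6.36, 6.28 and 6.18 in vector tumors 1 to 3. The groups did not overlap, and the log2 fold change was -0.29 (adjusted p = 0.767 by limma). TUB, a tubby protein also described as a MERTK ligand, had 0.17 (adjusted p = 0.917).

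The DDR collagen ligands and effectors had a median of 0.13 over 13 genes, most of which are collagen chains. At an unadjusted p below 0.05, 2 were higher and 2 lower, where 3.16% and 2.73% of all genes were. These 4 were all collagen chains. The basement membrane chain COL4A2 had 6.14, 6.50 and 6.47 in fusion tumors 1 to 3, against 7.28, 7.61 and 7.07 in vector tumors 1 to 3. The groups lay well apart, with a log2 fold change of -0.95 (SE 0.16, adjusted p = 0.127 by limma, and 0.0130 with array weights). Its partner chain COL4A1, named after its value was seen, was at -1.17 on the same scale (adjusted p = 0.614). The fibrillar chain COL1A1 had 8.05, 7.88 and 7.89 in fusion tumors 1 to 3, against 7.03, 7.81 and 7.03 in vector tumors 1 to 3, where vector tumor 2 came close to the fusion tumors. Its log2 fold change was 0.65 (adjusted p = 0.593) and that of COL1A2, also named after its value was seen, 0.24 (adjusted p = 0.708). COL1A1 and COL1A2 are also in the list of fibroblast markers. Insulin signalling genes had a median of 0.040 over 12 genes, with 0 at an unadjusted p below 0.05, and AKT2 (0.12) and FOXO1 (-0.19) had the smallest p.

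Set beside the rest of their class, the 34 other receptor tyrosine kinases tested had a median log2 fold change of 0.012, and limma called 0. Of the 34, 20 were above 0, where 50.8% of all genes tested were. At an unadjusted p below 0.05, 4 were higher and 1 lower in fusion tumors, where 3.16% and 2.73% of all genes were. FGFR2 had 5.85, 6.03 and 5.76 in fusion tumors 1 to 3, against 5.22, 5.66 and 5.39 in vector tumors 1 to 3, with a log2 fold change of 0.46 (adjusted p = 0.526). EGFR had 10.27, 9.74 and 9.70 in fusion tumors, against 9.38, 9.56 and 9.22 in vector tumors, with a log2 fold change of 0.52 (adjusted p = 0.617). Neither showed overlap. The remaining ones, named after their values were seen, were FGFR3 (0.78), FGFR1 (0.23) and, lower, ROR2 (-0.39). Of the other receptor tyrosine kinases tested, only FGFR3 had a log2 fold change above those of MET (0.54) and MERTK (0.70). FGFR3 had 10.30, 10.01 and 10.24 in fusion tumors 1 to 3, against 8.58, 9.63 and 9.98 in vector tumors 1 to 3. Vector tumor 1 was the lowest.

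**Figure D4:**
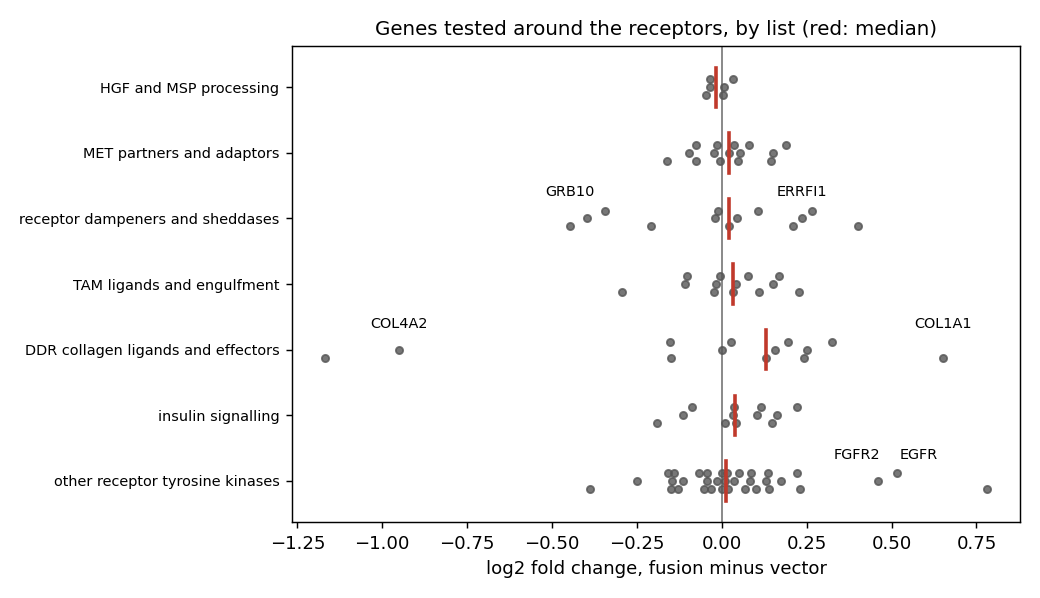
Log2 fold change, fusion minus vector (horizontal axis), of each gene tested in 7 lists around the receptors, 1 point per gene, with the list's median in red. Medians lie between -0.016 and 0.13, and among the collagens COL4A1 lies at -1.17, COL4A2 at -0.95 and COL1A1 at 0.65.

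Of the genes tested, LRRC4B, P3H2 and ATF7 had the profiles most like that of MET over the 6 tumors, by the root mean square difference of mean-centred log2 values (0.056, 0.062 and 0.063). LRRC4B had 7.49, 7.52 and 7.41 in fusion tumors 1 to 3, against 7.18, 7.01 and 6.92 in vector tumors 1 to 3. P3H2, a collagen prolyl hydroxylase, had 11.63, 11.58 and 11.65 in fusion tumors, against 11.36, 10.99 and 11.02 in vector tumors. ATF7, a bZIP transcription factor, had 7.39, 7.36 and 7.48 in fusion tumors, against 7.08, 6.91 and 6.78 in vector tumors. Their likeness to MET over these tumors is what chose them, and none passed limma's threshold (adjusted p of 0.309 and above).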

How the data were processed

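The authors deposited a single table of log2 levels, with a value for each probe set and array. That they are log2 follows from their range, and the normalization behind it is not given in the sources used here. No detection call or depth was available, so precision is limited by the number of arrays. Groups and replicate numbers came from the sample titles. Platform annotation named 1 gene for 44988 probe sets, and the 10 members' symbols and gene identifiers matched RefSeq. Each of 18132 genes was represented by its probe set with the highest mean, and 4438 genes with a mean under the 30th percentile of all probe sets were left out, which left 13694. The 3 fusion tumors were set against the 3 vector tumors with limma 3.58.1 in R 4.3.3 (two-sided, Benjamini-Hochberg adjustment over all features, threshold 0.05), once over genes and once over all 49293 probe sets without a filter. Values of a gene's most abundant probe set come from the fit over genes, those of other probe sets and of HGF from the fit over probe sets. The model was tested on simulated data. Named beside the members were genes past the threshold or, where there were none, the 2 with the smallest p in each list, and the 3 genes most like the member with the smallest p. The members and lists were chosen with earlier results of these data known. Alternatives covered the filter, the probe set choice, other normalizations (quantile, median centring), other variance models (robust trend, array weights), a block for the replicate number and leaving out each tumor. Other software was Python 3.11.15 with matplotlib 3.10.9 and, in R, data.table (version 1.17.8).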

Additional observations from a re-analysis of the deposited data

How the results depend on the processing

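The count of members called was 0 in limma's fit, and also 0 without the filter, with the 50th percentile filter, with the mean or the most variable probe set, with quantile normalization, median centring, a trend with robust fitting or the replicate block. Array weights gave 1 member gene (MET), 2 member probe sets (both of MET) and 1 gene of the pathway lists (COL4A2). Leaving out each tumor in turn gave 0 to 1 member genes. Over all genes limma called 10, against 1 with the 50th percentile filter, 16 with the mean of probe sets, 6 with the most variable probe set, 140 with array weights, 8 with the replicate block and 0 to 37 when a tumor was left out (0 without fusion tumor 1 and 37 without vector tumor 1). The number of MET probe sets with an unadjusted p below 0.05 was 5 in limma's fit and 3 to 6 under the alternatives, the lowest without fusion tumor 2 or fusion tumor 3. MET stayed between 0.43 and 0.63 and MERTK between 0.51 and 0.83 on the log2 scale, with adjusted p from 0.00919 to 0.892 and from 0.0813 to 1.00. MET, AXL and DDR2 had no value with the most variable probe set, which was dim. AXL and DDR2 also had none with the 50th percentile filter, and DDR2 none with the mean of probe sets. Counts of members called under these settings leave those genes out. Signs near 0 changed for MST1R with the most variable probe set (-0.20), quantile normalization (-0.023) and median centring (-0.022), and for AXL with the mean of probe sets (-0.053). Leaving out a tumor gave log2 fold changes from -0.066 to 0.055 for MST1R, -0.0077 to 0.092 for AXL, -0.20 to 0.033 for TYRO3, -0.024 to 0.12 for INSR, -0.23 to -0.0032 for GAS6, -0.47 to -0.20 for DDR1 and 0.13 to 0.43 for DDR2. No cause was tested for these changes. With the replicate block the unadjusted limma p of DDR2 went from 0.143 to 0.0233 (adjusted p = 0.645). The replicate block moved no member's call. The numbers were not treated as pairs, since deviations of same-numbered tumors correlated at only 0.097, 0.17 and 0.051, although each tumor correlated best with its own number. For member probe sets leaving the filter out is the fit itself, and pseudocounts planned for linear values were not needed.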
